A study of Mus musculus with 23 samples.

Results

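The genes described here are 33 genes of the interferon response and of antigen presentation on MHC class I, measured as mRNA in mouse brain. They were taken by symbol, and all 33 were found among the 18848 genes of the expression table, each with a mean of at least 10 normalised reads over the libraries. A normalised read count is the number of reads assigned to a gene after the authors scaled the libraries to one another. The 23 libraries came from brain, with no region named, of male C57BL/6J mice at P17 (postnatal day 17). There were 6 HT DCS, 6 HT vehicle, 5 WT DCS and 6 WT vehicle libraries. HT mice are heterozygous for Grin2b, in a series titled for the C456Y mutation of that gene, whose product GluN2B is a subunit of NMDA-type glutamate receptors, and WT mice are wild-type. The labels write DCS without spelling it out and give no dose or route. The letters usually stand for D-cycloserine, which partially activates NMDA receptors through their glycine-binding site. The labels do not say that each library is a mouse of its own, and p-values therefore rest on the spread among libraries, part of which may be technical. Gene counts sum both alleles and cannot check the genotype. Library totals were alike after scaling, at 32.3 M to 33.5 M normalised reads.

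Type I interferons are secreted proteins that warn cells of viral nucleic acid. Binding of their receptor leads to assembly of the factor ISGF3, which contains Stat2 and Irf9 and attaches to interferon-stimulated response elements (ISREs) in promoters and switches on antiviral genes. Interferon gamma acts through gamma-activated sites (GAS) and is the stronger inducer of the MHC class I pathway, in which peptides cut by the proteasome are pumped by Tap1 and loaded on class I molecules with B2m. In brain, a low resting activity of these genes is carried by several cell types, with microglia and endothelium among those that respond most. The members were grouped by role into 3 transcription factors, 3 RNA sensors with a ligase, 6 regulators, 8 antiviral effectors, 6 other induced genes and 7 genes of antigen presentation.

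The promoters of the members carried the ISRE core more often than the promoters of other genes. RefSeq promoter windows on GRCm38.p6, from 250 bases before to 50 after the start of transcription, were at hand for 27 members. Nlrc5, Ifi27, Rtp4, Usp18, Parp9 and Parp14 had none. The core, GAAA followed by any 2 bases and GAAA again, was searched on both strands and occurred in the windows of 11 of these 27 members (40.7%) and of 1079 of 27025 genes (3.99%). The GAS motif TTCNNNGAA, also searched on both strands, occurred in 7 of 27 members (25.9%) and in 2582 of 27025 genes (9.55%). A match is a description of the letters and not a tested binding site. The upstream bases of 3 members are shown because these members, Irf7, Isg15 and Ifit1, had the smallest p-values between HT DCS and WT vehicle. They are Irf7 at chr7:141266425-141266674 on the minus strand, Isg15 at chr4:156200819-156201068 on the minus strand and Ifit1 at chr19:34640639-34640888 on the plus strand. Each is written 5′ to 3′ along the gene up to the base before the start of transcription, and capitals mark ISRE core matches.
Irf7: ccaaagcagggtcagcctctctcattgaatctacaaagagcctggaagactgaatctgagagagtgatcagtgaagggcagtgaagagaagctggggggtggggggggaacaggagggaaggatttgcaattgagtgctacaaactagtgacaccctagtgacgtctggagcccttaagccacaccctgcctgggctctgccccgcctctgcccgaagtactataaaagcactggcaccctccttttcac
Isg15: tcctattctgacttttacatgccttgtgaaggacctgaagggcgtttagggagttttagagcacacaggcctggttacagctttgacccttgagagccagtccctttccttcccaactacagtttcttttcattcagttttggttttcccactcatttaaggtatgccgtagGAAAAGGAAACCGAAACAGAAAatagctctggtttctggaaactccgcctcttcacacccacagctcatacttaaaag
Ifit1: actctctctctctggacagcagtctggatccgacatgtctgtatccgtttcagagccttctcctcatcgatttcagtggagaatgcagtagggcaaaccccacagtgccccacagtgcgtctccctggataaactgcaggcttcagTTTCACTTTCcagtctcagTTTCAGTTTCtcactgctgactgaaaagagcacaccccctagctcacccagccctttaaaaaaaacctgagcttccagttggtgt
The Isg15 window held 3 overlapping matches, from base -78 to base -57 relative to the start. The Ifit1 window held 2, both on the opposite strand, at bases -104 to -95 and -85 to -76. The Irf7 window held no match to either motif, which says only that these letters are not in this window.

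The other 9 members whose windows held the core upstream or just downstream of the start are represented by 1 site each, with 10 flanking bases on each side where the window allows. Where a window held 2 matches, the one further along the gene is shown. The search required the GAAA letters, so their likeness between sites is not a result. The capitals are the core, which begins and ends with GAAA or, where it lies on the opposite strand, with TTTC.
Stat2 (chr10:128270266-128270295, plus strand): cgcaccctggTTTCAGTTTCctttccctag
Ifih1 (chr2:62646206-62646233, minus strand): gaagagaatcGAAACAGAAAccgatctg
Ddx58 (chr4:40239804-40239833, minus strand): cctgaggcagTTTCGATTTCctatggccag
Rsad2 (chr12:26456553-26456582, minus strand): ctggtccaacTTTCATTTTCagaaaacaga
Ifit3 (chr19:34583397-34583426, plus strand): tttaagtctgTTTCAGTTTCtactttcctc
Bst2 (chr8:71537577-71537606, minus strand): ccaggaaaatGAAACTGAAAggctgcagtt
Ifitm3 (chr7:141010706-141010735, minus strand): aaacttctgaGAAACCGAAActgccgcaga
Eif2ak2 (chr17:78882535-78882564, minus strand): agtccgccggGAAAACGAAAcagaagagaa
B2m (chr2:122147538-122147567, plus strand): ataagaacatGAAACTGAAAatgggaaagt
Ifit3, Bst2 and Ifitm3 held a second match each, overlapping the first in Bst2. Those of Ifih1, Ddx58, Ifitm3 and Eif2ak2 lay after the start of transcription. B2m was the only one of the 7 antigen presentation genes with a core match.

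Levels spanned a wide range. Per kilobase of annotated exon, the highest member was B2m, the light chain of class I molecules, at 1257 normalised reads per kb, followed by Adar, an enzyme that edits double-stranded RNA, at 784 and the class I heavy chain gene H2-D1 at 531. The lowest were Nlrc5, the transactivator of class I genes, at 3.11, Psmb9, an immunoproteasome subunit, at 4.17 and Rsad2, which encodes viperin, at 6.56. The genes that varied most between libraries were low ones. The coefficient of variation over the 23 libraries was 93.8% for Nlrc5, 46.2% for Psmb9, 36.6% for Ifit1, 36.1% for Rsad2, 35.3% for Xaf1 and 34.9% for Isg15. Counting error at those levels, taken as 1 over the square root of the mean normalised read count, is about 19.5% for Nlrc5, 25.6% for Psmb9, 16.3% for Ifit1, 18.8% for Rsad2, 14.1% for Xaf1 and 19.6% for Isg15. H2-D1 and Adar varied least, by 4.37% and 5.46%. Reads of H2-D1 and H2-K1, and of Ifit3 and its near copy Ifit3b, can be exchanged because their sequences are alike. Parp9 and Dtx3l overlap on opposite strands, as do Psmb9 and Tap1, and whether the counting used strand is not given in the sources used here.

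No member passed the test in any of the 6 contrasts, and the same was true of every gene tested. The test was limma on log2(normalised read count + 1) with Benjamini-Hochberg adjustment over 17256 genes at 0.05, and it called 0 genes in each of the 6 contrasts, which is a percentage called of 0. Below that threshold, group means of the members were often highest in WT vehicle or lowest in HT DCS, but many members did not have both. Rsad2 was lowest in HT vehicle, Parp9 was lowest in WT DCS, and Tapbp was highest in WT DCS and lowest in WT vehicle. WT vehicle had the highest of the 4 group means for 26 of 33 members, against 23.3% of all genes tested. HT DCS had the lowest for 19 of 33, against 29.2% of all genes. Without WT vehicle replicate 3, WT vehicle was highest for 21 and HT DCS lowest for 19. The members were chosen with earlier results of these data known, and many deviated together within groups. These counts, and those for each comparison below, are therefore a description of the list. The mean of the 33 members on the log2 scale was 6.92 ± 0.19 in HT DCS (SD, n = 6), 6.97 ± 0.16 in HT vehicle (n = 6), 6.996 ± 0.10 in WT DCS (n = 5) and 7.14 ± 0.24 in WT vehicle (n = 6). The groups overlapped, and the distance from the lowest to the highest group mean was similar to the SD within WT vehicle, the largest of the 4 SDs. The SD within groups, pooled, was 0.18. In bulk tissue, fewer cells of a type and less RNA per cell cannot be told apart.

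**Figure D1:**
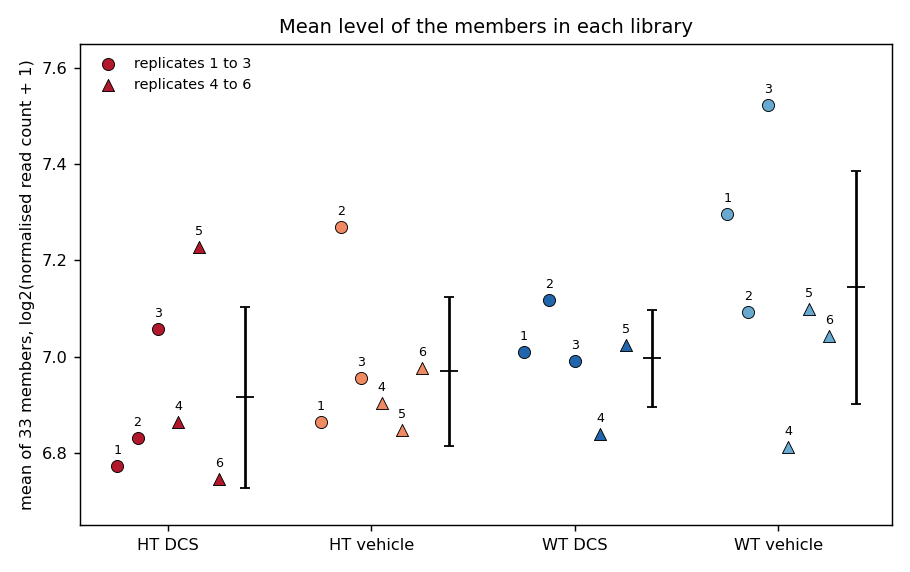
Mean level of the 33 members in each library, as log2(normalised read count + 1) on the vertical axis, by group on the horizontal axis. Each symbol is 1 library with its replicate number, the bars are the group mean and SD, and WT vehicle replicate 3 stands highest at 7.52 while HT DCS replicate 6 stands lowest at 6.74.

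Between HT vehicle and WT vehicle, the comparison of genotype without treatment, 30 of 33 members had a lower mean in HT vehicle, where 50.3% of all genes did. In this and the following counts a lower mean is a negative limma difference of the log2 values, whose sign can differ from that of the mean normalised read counts. The median member log2 difference was -0.15, with a median over all genes of -0.00045. No member reached an unadjusted p under 0.05, where 729 genes did (4.22%, and 2.03% counting lower ones alone). All 3 transcription factors, all 6 regulators, all 8 antiviral effectors and all 6 other induced genes lay lower, and of the antigen presentation genes 5 of 7 did. The exceptions were Ifih1, the double-stranded RNA sensor MDA5, at a mean of 114 in HT vehicle against 104 in WT vehicle, H2-D1 with 1385 and 1370.3, and Tapbp with 610.4 and 609.

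Between HT DCS and WT DCS, the comparison of genotype under treatment, 23 of 33 members had a lower mean in HT DCS, where 50.2% of all genes did. The median member difference was -0.04. Only Parp14, lower in HT DCS, reached an unadjusted p under 0.05, where 7.55% of all genes did, and 4.13% counting lower ones alone. The 8 antiviral effectors had 7 lower means and a median of -0.13, and the 7 antigen presentation genes had 4 lower means and a median of -0.01.

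Between WT DCS and WT vehicle, the comparison of treatment in wild-type mice, 29 of 33 members had a lower mean in WT DCS, where 49.7% of all genes did. The median member difference was -0.13. Irf7, lower in WT DCS, alone reached an unadjusted p under 0.05, where 2.88% of all genes did, and 1.62% counting lower ones alone. The 4 members with a positive log2 difference were Ifi27, Parp14, Psmb8 and Tapbp.

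Between HT DCS and HT vehicle, the comparison of treatment in heterozygous mice, 21 of 33 members had a lower mean in HT DCS, where 50.7% of all genes did, with a median of -0.06. Irf7 was again the only member at an unadjusted p under 0.05, where 4.8% of all genes were, and 2.58% counting lower ones alone. The genotype by treatment interaction, which asks whether the response to DCS differs between genotypes, had 12 of 33 negative values, where 50.7% of all genes had one. Its median over the members was 0.04, 0 members and 756 genes (4.38%, and 2.07% with a negative value) were at an unadjusted p under 0.05, and 0 genes were called by limma.

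Between HT DCS and WT vehicle, which sets treated heterozygous mice against untreated wild-type mice, 30 of 33 members had a lower mean in HT DCS, where 50.5% of all genes did. The median was -0.17. Irf7, Stat2, Isg15, Ifit1, Ifit3 and Bst2 were at an unadjusted p under 0.05, all lower in HT DCS, which is 6 of 33 members against 7.18% of all genes, and 4.09% counting lower ones alone. None passed adjustment. These 5 comparisons share groups, so their values are not separate evidence of one another. In none of them did the 2 groups of any member fail to overlap. Among all genes, the first group lay wholly below the second in 0.133% and wholly above it in 0.116% for HT vehicle against WT vehicle, 0.243% and 0.168% for HT DCS against WT DCS, and 0.209% and 0.122% for WT DCS against WT vehicle. These shares were 0.0753% and 0.0522% for HT DCS against HT vehicle and 0.18% and 0.133% for HT DCS against WT vehicle.

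**Figure D2:**
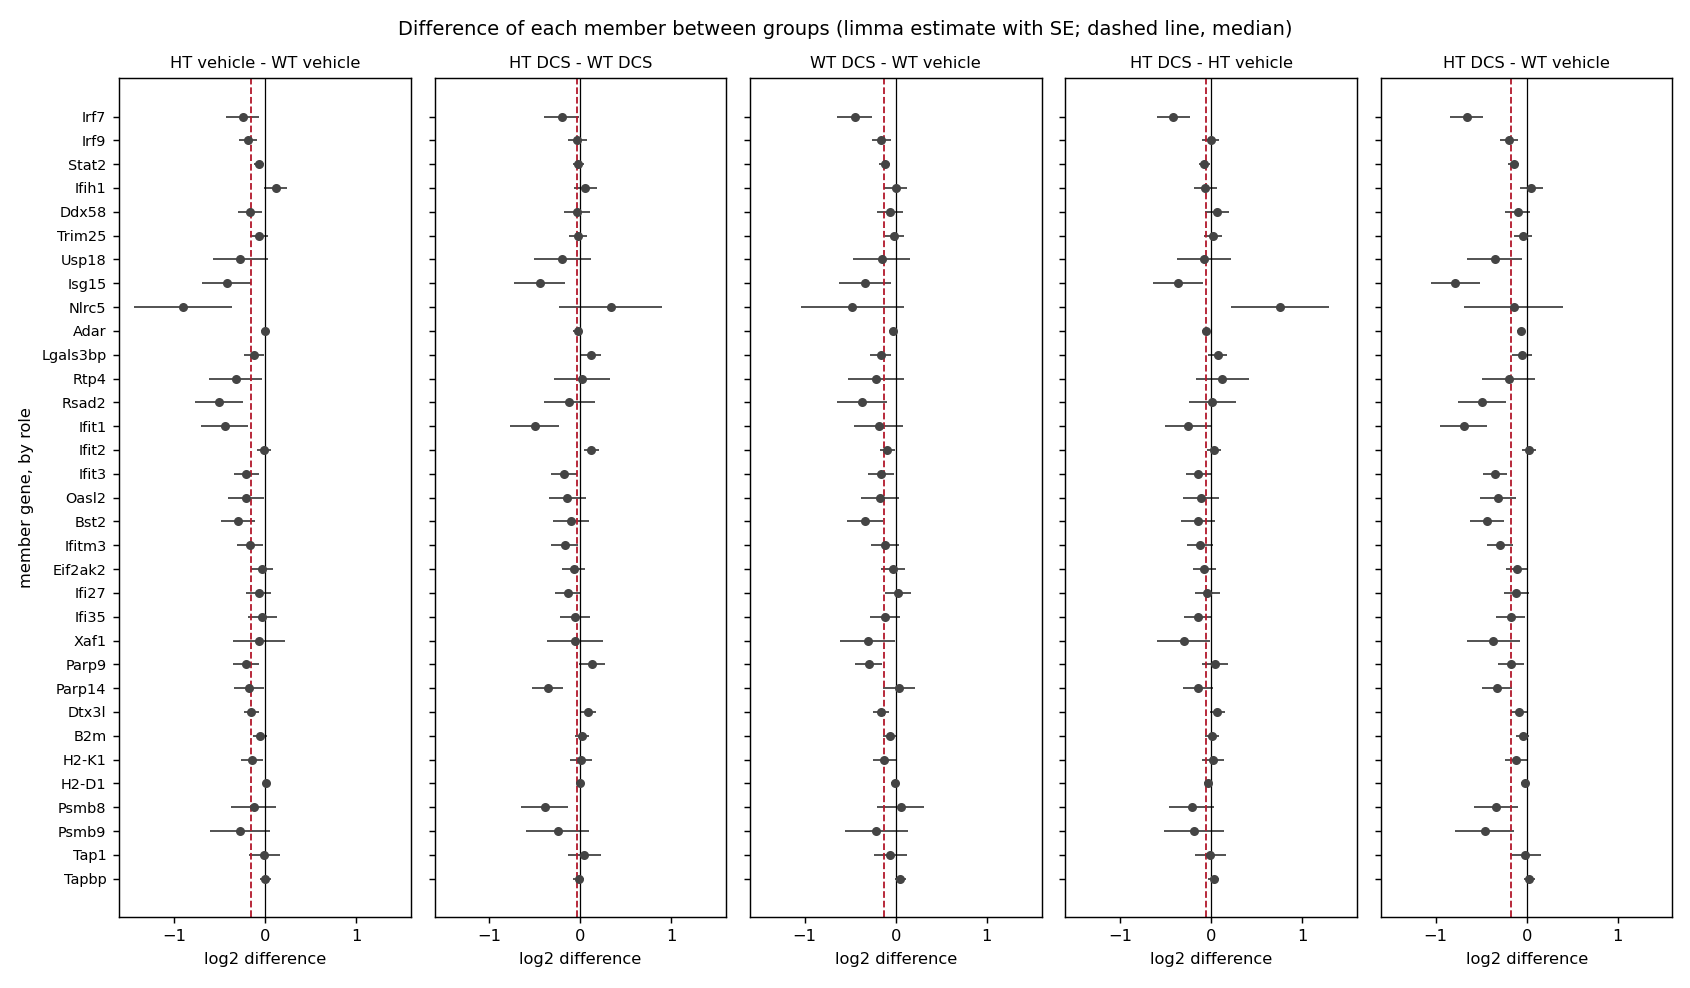
Log2 difference of each member between groups, as estimated by limma, for 5 comparisons side by side. Points are estimates, horizontal bars are 1 SE, the solid line is 0 and the dashed line is the median of the 33 members, which lies at -0.15 in the panel of HT vehicle against WT vehicle and at -0.17 in that of HT DCS against WT vehicle.

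Among the transcription factors, Irf7 differed most. Irf7 (ENSMUSG00000025498, GRCm38 chr7:141262706-141266481, minus strand, protein coding in GENCODE M21) amplifies the type I interferon response. Its normalised read count ran from 22.4 to 50.8 with a median of 36.3 in HT DCS and from 35.2 to 58.8 with a median of 47.5 in HT vehicle. It was 43.5, 41.7, 39.9, 32.3 and 47.4 in the 5 WT DCS libraries and ran from 36.0 to 74.96 with a median of 58.4 in WT vehicle. WT vehicle replicate 4, at 36.0, was the only WT vehicle library among the values of the treated groups. The lowest value of all was in HT DCS replicate 6 and the highest in WT vehicle replicate 3. The log2 difference of HT DCS from WT vehicle was -0.66 ± 0.18 (SE), with all 6 HT DCS libraries under the WT vehicle mean (limma, unadjusted p = 0.0011, adjusted p = 0.452). DCS against vehicle gave -0.45 ± 0.19 in WT, with 5 of 5 libraries under the WT vehicle mean, and -0.42 ± 0.18 in HT, with 5 of 6 under the HT vehicle mean (limma, adjusted p = 0.999999 and 0.973). The interaction for Irf7 was 0.04 on the log2 scale.

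Stat2 and Irf9 encode partners in ISGF3 and were measured at higher levels with less spread. Stat2 ran from 1039 to 1312 with a median of 1133 in HT DCS and from 1056 to 1315 with a median of 1253 in HT vehicle. In WT DCS it was 1024, 1255, 1254, 1083 and 1235, and in WT vehicle it ran from 1205 to 1345 with a median of 1277. Stat2 was lower in WT DCS than in WT vehicle by a log2 difference of -0.12 ± 0.06 (limma, adjusted p = 0.999999), and all 5 WT DCS libraries lay under the WT vehicle mean. Irf9 ran from 291 to 386 with a median of 336 in HT DCS and from 269.5 to 445 with a median of 329 in HT vehicle. It was 308, 387, 346, 353 and 331 in WT DCS and ran from 339 to 482 with a median of 372 in WT vehicle. Irf9 had the smallest p of the members between the vehicle groups, at -0.19 ± 0.10 on the log2 scale (limma, adjusted p = 0.999) and 5 of 6 HT vehicle libraries under the WT vehicle mean.

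**Figure D3:**
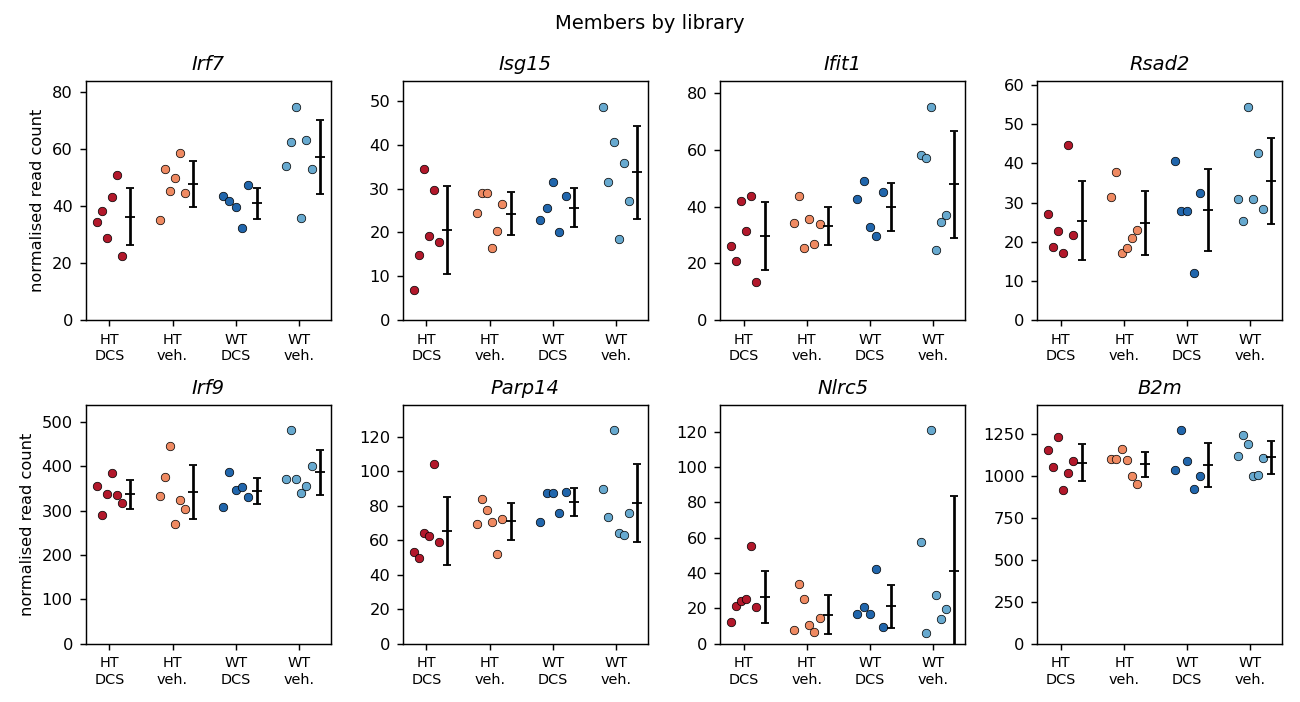
Normalised read counts of 8 members in each library, with HT DCS, HT vehicle, WT DCS and WT vehicle from left to right in each panel. Points are libraries, bars are the group mean and SD (cut at 0 for Nlrc5 in WT vehicle), and Irf7 shows a mean of 57.4 in WT vehicle above 36.3 in HT DCS, while B2m lies between 1065 and 1111 in the 4 groups.

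The RNA sensors and their ligase had close group means. Ddx58, the sensor RIG-I, averaged 146 normalised reads in HT DCS, 138 in HT vehicle, 146 in WT DCS and 153 in WT vehicle. Ifih1 averaged 108 in HT DCS, 114 in HT vehicle, 105 in WT DCS and 104 in WT vehicle. Trim25, the ubiquitin ligase that acts on RIG-I, ran from 203 to 281 with a median of 227 in HT DCS, from 195 to 282 with a median of 227 in HT vehicle, and from 206 to 267 with a median of 252 in WT vehicle, and was 257, 256, 211, 248 and 232 in WT DCS. Its groups overlapped almost wholly. Ddx58 was 228 in HT DCS replicate 5, far above the other HT DCS libraries.

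Among the regulators, Isg15 had the largest log2 difference between HT DCS and WT vehicle and Nlrc5 between HT vehicle and WT vehicle. Isg15 (ENSMUSG00000035692, GRCm38 chr4:156199424-156200818, minus strand, protein coding) encodes a ubiquitin-like protein that is attached to other proteins after interferon. Its normalised read count ran from 6.88 to 34.5 with a median of 18.6 in HT DCS and from 16.5 to 29.0 with a median of 25.5 in HT vehicle. It was 22.9, 25.6, 31.5, 20.1 and 28.2 in WT DCS and ran from 18.4 to 48.7 with a median of 33.7 in WT vehicle. HT DCS replicate 1 was the lowest library and WT vehicle replicate 1 the highest, and every pair of groups overlapped. HT DCS was lower than WT vehicle by a log2 difference of -0.78 ± 0.27, with 5 of 6 HT DCS libraries under the WT vehicle mean (limma, adjusted p = 0.614). Its differences were -0.45 ± 0.28 between HT DCS and WT DCS and -0.36 ± 0.27 between HT DCS and HT vehicle (limma, adjusted p = 0.733 and 0.973).

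Nlrc5 (ENSMUSG00000074151, GRCm38 chr8:94434356-94527272, plus strand, protein coding) was low and uneven. It ran from 12.3 to 55.1 with a median of 22.8 in HT DCS and from 6.58 to 33.9 with a median of 12.4 in HT vehicle. It was 16.7, 20.5, 16.6, 42.0 and 9.58 in WT DCS and ran from 6.11 to 121 with a median of 23.5 in WT vehicle. The value of 121 in WT vehicle replicate 3 was the highest of all, and the lowest, 6.11, came from WT vehicle replicate 2. HT DCS was above HT vehicle by a log2 difference of 0.75 ± 0.54 (limma, adjusted p = 0.973), with 5 of 6 HT DCS libraries above the HT vehicle mean. The interaction estimate for Nlrc5 was 1.23 ± 0.78 (limma, adjusted p = 0.984).

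The other 4 regulators had these levels. Usp18, which removes Isg15 from proteins and dampens receptor signalling, averaged 21.997 in HT DCS, 22.2 in HT vehicle, 23.9 in WT DCS and 26.1 in WT vehicle. Rtp4, an interferon-induced receptor transporter protein, averaged 42.5, 37.9 and 42.9 in HT DCS, HT vehicle and WT DCS and 50.7 in WT vehicle. Lgals3bp, a secreted glycoprotein, averaged 337 in HT DCS, 322 in HT vehicle, 311 in WT DCS and 352 in WT vehicle. These 3 genes had their highest mean in WT vehicle, and the groups compared overlapped for each of them. Adar, the highest of the regulators by mean, ran from 5961 to 6385 with a median of 6156 in HT DCS, from 5461 to 6884 with a median of 6581 in HT vehicle and from 5844 to 6871 with a median of 6562 in WT vehicle, and was 6250.0, 6622, 6442, 6088 and 6210.5 in WT DCS. HT DCS replicates kept to the narrowest range of the 6-library groups, inside that of HT vehicle.

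Among the antiviral effectors, Ifit1 and Rsad2 are given by library. Ifit1 (ENSMUSG00000034459, GRCm38 chr19:34640871-34650009, plus strand, protein coding) encodes a protein that binds viral RNA. It ran from 13.2 to 43.8 normalised reads with a median of 28.7 in HT DCS and from 25.2 to 43.7 with a median of 34.0 in HT vehicle. It was 42.8, 49.1, 32.7, 29.6 and 45.1 in WT DCS and ran from 24.8 to 75.2 with a median of 47.1 in WT vehicle. In WT vehicle, replicates 1, 2 and 3 held the 3 highest values and replicates 4, 5 and 6 lay within the range of HT DCS. HT DCS was lower than WT vehicle by a log2 difference of -0.69 ± 0.26, with all 6 libraries under the WT vehicle mean (limma, adjusted p = 0.634). HT DCS was lower than WT DCS by -0.50 ± 0.27, with 4 of 6 under the WT DCS mean (limma, adjusted p = 0.693).

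Rsad2 (ENSMUSG00000020641, GRCm38 chr12:26442746-26456452, minus strand, protein coding) encodes viperin, which makes a chain-terminating nucleotide. It ran from 17.1 to 44.8 with a median of 22.3 in HT DCS and from 17.1 to 37.8 with a median of 21.9 in HT vehicle. It was 40.5, 27.9, 27.9, 11.9 and 32.4 in WT DCS and ran from 25.3 to 54.5 with a median of 30.9 in WT vehicle. HT vehicle replicates 1 and 2 lay among the WT vehicle values and the other 4 lay below them all. HT vehicle lay under WT vehicle by a log2 difference of -0.51 ± 0.26, in 5 of 6 libraries set against the WT vehicle mean (limma, adjusted p = 0.999).

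The other 6 effectors had these levels. Ifit3, of the same RNA-binding family as Ifit1, averaged 141 in HT DCS, 156 in HT vehicle, 161 in WT DCS and 182 in WT vehicle. Bst2, or tetherin, which holds budding virus at the cell surface, averaged 50.8 in HT DCS, 56.1 in HT vehicle, 55.3 in WT DCS and 70.0 in WT vehicle. Oasl2, an oligoadenylate synthetase-like gene, averaged 79.5, 84.4 and 87.0 in HT DCS, HT vehicle and WT DCS and 99.8 in WT vehicle. All 3 followed the order HT DCS lowest and WT vehicle highest, as did Ifitm3, which blocks viral entry, with means of 133 in HT DCS, 145 in HT vehicle, 149.5 in WT DCS and 161 in WT vehicle. Eif2ak2, the kinase PKR that halts translation, averaged 203, 215 and 212 in those 3 groups and 219 in WT vehicle. Ifit2, the effector with the highest mean, did not follow that order. It ran from 255 to 344 with a median of 314 in HT DCS, from 266 to 348 with a median of 294 in HT vehicle and from 257 to 330.1 with a median of 309 in WT vehicle, and was 259.7, 277, 266, 286 and 317 in WT DCS.

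Of the other induced genes, Parp14, Parp9 and Dtx3l encode ADP-ribosylation proteins, and Parp9 and Dtx3l act as a pair. Parp14 ran from 49.5 to 104 with a median of 60.8 in HT DCS and from 52.0 to 83.9 with a median of 71.5 in HT vehicle. It was 70.6, 87.6, 87.1, 76.0 and 88.1 in WT DCS and ran from 63.1 to 124 with a median of 74.7 in WT vehicle. All HT DCS libraries but replicate 5, at 104, lay below all 5 WT DCS libraries. The log2 difference of HT DCS from WT DCS was -0.36 ± 0.17 (limma, unadjusted p = 0.046, adjusted p = 0.658).

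Parp9 ran from 65.9 to 118 with a median of 77.8 in HT DCS and from 63.0 to 93.0 with a median of 78.8 in HT vehicle. It was 67.7, 83.2, 62.1, 88.8 and 69.2 in WT DCS and ran from 77.9 to 126 with a median of 87.5 in WT vehicle. The lowest WT vehicle value exceeded 3 of the 5 WT DCS values. WT DCS was lower than WT vehicle by a log2 difference of -0.30 ± 0.15 (limma, adjusted p = 0.999999), and the interaction was 0.34 ± 0.20 (limma, adjusted p = 0.984). Dtx3l ran from 101 to 130.2 with a median of 117 in HT DCS, from 99.9 to 124 with a median of 109 in HT vehicle and from 109.7 to 136 with a median of 125 in WT vehicle, and was 96.1, 119, 115, 111 and 108 in WT DCS. HT vehicle was lower than WT vehicle by -0.15 ± 0.08 (limma, adjusted p = 0.999), and the interaction was 0.23 ± 0.12, the smallest p of the members in that contrast (limma, adjusted p = 0.984). Reads from the overlap of Parp9 and Dtx3l could be counted for either gene.

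Ifi27, a mitochondrial protein gene and the highest of this class, ran from 181 to 326 with a median of 240.3 in HT DCS, from 196 to 314 with a median of 241 in HT vehicle and from 217 to 288 with a median of 260.2 in WT vehicle, and was 298, 303, 246, 237 and 215 in WT DCS. Its groups lay on top of one another. Ifi35 averaged 49.3, 54.0 and 50.5 in HT DCS, HT vehicle and WT DCS and 55.0 in WT vehicle. Xaf1, a partner of the apoptosis inhibitor XIAP, averaged 43.1, 52.4 and 46.0 in those groups and 58.8 in WT vehicle, where its values reached from 22.2 to 86.7.

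Among the antigen presentation genes, B2m and H2-D1 had close means in the 4 groups. B2m averaged 1078 normalised reads in HT DCS, 1069 in HT vehicle, 1065 in WT DCS and 1111 in WT vehicle. H2-D1 ran from 1210.4 to 1455 with a median of 1367 in HT DCS, from 1307 to 1453 with a median of 1387 in HT vehicle and from 1316 to 1429.6 with a median of 1367 in WT vehicle, and was 1405, 1379, 1329, 1253 and 1443 in WT DCS. Its group medians were nearly equal. H2-K1, the other classical heavy chain gene, averaged 406 in HT DCS, 400.2 in HT vehicle, 407 in WT DCS and 439 in WT vehicle.

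Tapbp, or tapasin, which holds class I molecules at the peptide transporter, averaged 624 in HT DCS, 610.4 in HT vehicle, 629 in WT DCS and 609 in WT vehicle, and Tap1, a subunit of that transporter, averaged 75.2, 76.9 and 73.8 in the first 3 of these groups and 79.6 in WT vehicle. The immunoproteasome subunits were low. Psmb8 averaged 33.6 in HT DCS, 38.9 in HT vehicle, 43.3 in WT DCS and 43.8 in WT vehicle, and Psmb9 averaged 11.9 in HT DCS, 15.8 in HT vehicle, 15.5 in WT DCS and 17.9 in WT vehicle. The median log2 difference of the 7 genes between HT DCS and WT vehicle was -0.04, against -0.33 for the 8 effectors, a difference between lists that was not tested.

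**Figure D4:**
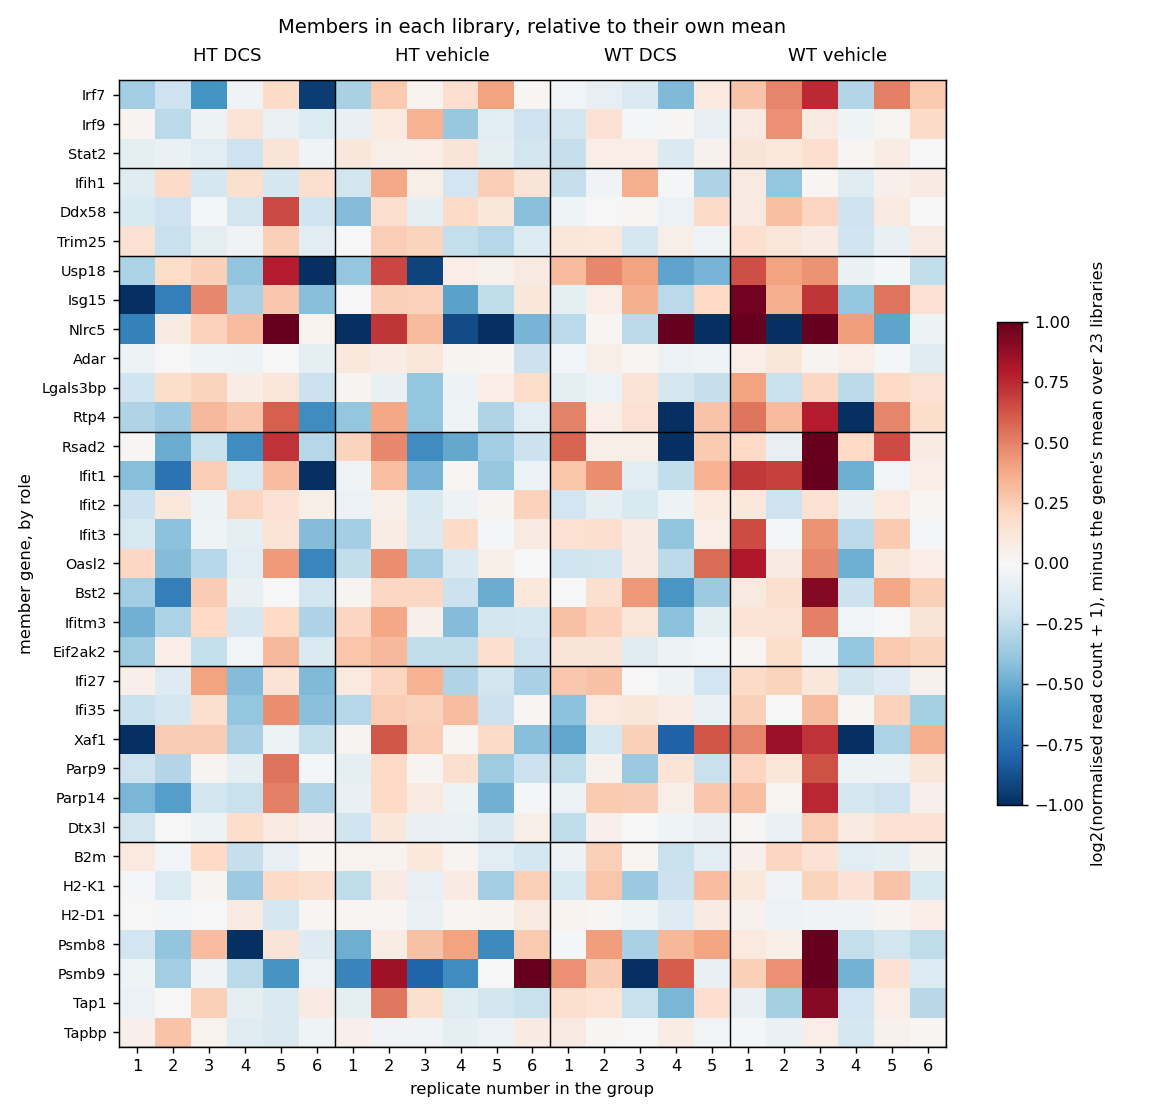
Each member (rows, by role) in each library (columns, by group), as log2(normalised read count + 1) minus the mean of that gene over 23 libraries. Red is above and blue below the mean, the colours end at 1 and -1, and the column of WT vehicle replicate 3 is above the mean in 31 of 33 members.

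Single libraries held the highest value for many members. WT vehicle replicate 3 was the highest of the 23 libraries for 14 of 33 members (42.4%), where it was highest for 3.30% of all genes. These were Irf7, Stat2, Nlrc5, Rtp4, Rsad2, Ifit1, Bst2, Ifitm3, Parp9, Parp14, Dtx3l, Psmb8, Psmb9 and Tap1, which come from every role but the RNA sensors. WT vehicle replicate 1 was highest for 4 more, among them Isg15 at 48.7 and Ifit3. Tap1 was 141.6 in WT vehicle replicate 3 and at most 78.4 in the other WT vehicle libraries. HT DCS replicate 6 was the lowest library for 7 of 33 members, among them Irf7, Ifit1, Ifit3 and Oasl2, and for 8.04% of all genes. WT vehicle replicate 4 ranked 21st of 23 by the member mean and was thus close to the lowest HT DCS libraries.

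**Figure D5:**
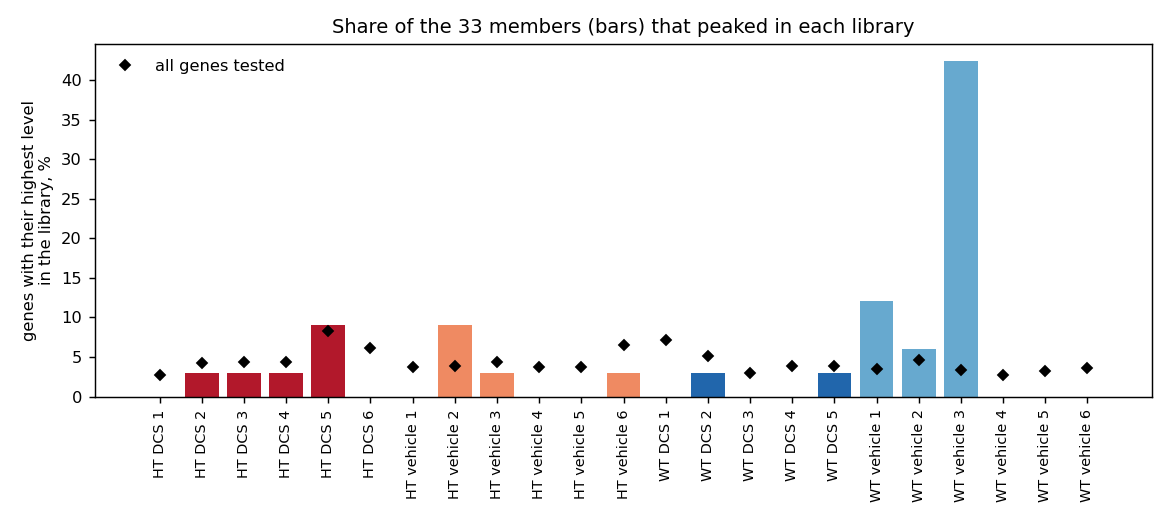
Percentage of genes whose highest level was in each library, with bars for the 33 members and diamonds for all genes tested. The bar of WT vehicle replicate 3 reaches 42.4%, against 3.30% of all genes, and the next is WT vehicle replicate 1 at 12.1%.

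Leaving out single libraries moved the medians. Without WT vehicle replicate 3 the median member difference was -0.10 between HT vehicle and WT vehicle, with 25 of 33 members lower, and -0.07 between WT DCS and WT vehicle, with 27 lower. Without WT DCS replicate 4 the median of that second comparison was -0.08. Between HT DCS and WT vehicle it was -0.28 without HT DCS replicate 5 and -0.11 without HT DCS replicate 6. Without WT vehicle replicate 3 it was -0.12, with 28 members lower and 4 at an unadjusted p under 0.05 by limma, against 6 with all libraries. Between HT DCS and WT DCS it was -0.10, -0.02 and -0.06 without HT DCS replicate 5, HT DCS replicate 6 and WT DCS replicate 4, and between HT DCS and HT vehicle it was -0.003 without HT vehicle replicate 2, -0.03 without HT DCS replicate 6 or HT vehicle replicate 1 and -0.04 without HT DCS replicate 1. The interaction median ranged from -0.015 without WT vehicle replicate 3 to 0.12 without WT vehicle replicate 4, and it was also negative without HT DCS replicate 5 or WT DCS replicate 4.

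The members also stood differently in the lower and the upper replicate numbers, which the labels do not call batches. By the numbers of the titles, each set held 3 libraries of each group, except for WT DCS, which had 2 in replicates 4 to 6. Comparisons with WT DCS in that set rest on those 2 libraries. In replicates 1 to 3, the median difference between HT DCS and WT vehicle was -0.33, with 30 of 33 members lower and 15 at an unadjusted p under 0.05, where 808 genes were. In replicates 4 to 6 it was -0.05, with 22 lower and 0 members at that p, where 1500 genes were. Between HT vehicle and WT vehicle the medians were -0.25 (26 lower) and -0.03 (18 lower), and between WT DCS and WT vehicle -0.18 (29 lower) and -0.05 (21 lower). Between HT DCS and WT DCS they were -0.07 (25 lower) and 0.02 (13 lower), and between HT DCS and HT vehicle -0.13 (25 lower) and 0.01 (14 lower). No member passed adjustment in either set. Irf7, Isg15 and Ifit1 were negative in both sets. Irf7 gave -0.89 ± 0.21 in replicates 1 to 3 and -0.42 ± 0.30 in replicates 4 to 6 between HT DCS and WT vehicle, Isg15 gave -1.31 ± 0.40 and -0.26 ± 0.31 and Ifit1 -1.13 ± 0.27 and -0.25 ± 0.35. The WT vehicle member mean was 7.30 in replicates 1 to 3 and 6.98 in replicates 4 to 6, while that of HT DCS was 6.89 and 6.95. Whether the difference between the number sets exceeds chance was not tested.

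Summed markers of other cells stood as follows. In WT vehicle replicate 3, summed levels ranked last of 23 for border macrophages, pericytes, meningeal fibroblasts and astrocytes, 22nd for microglia and 19th for endothelium. The same library ranked 3rd for neurons and 4th for oligodendrocytes. It ranked 2nd for Cd4 and 5th for the sum of the neutrophil and red cell list. Of the 6 genes on that list 4 were summed, S100a9 and the haemoglobin genes Hbb-bs, Hbb-bt and Hba-a1. S100a8 and Ly6g were not found, and S100a9 was at 0 in at least 1 library. The rank is therefore no measure of neutrophils. The libraries ranked 3rd, 4th and 5th by the member mean, HT vehicle replicate 2, HT DCS replicate 5 and WT DCS replicate 2, had microglia sums of 6254, 6971 and 7298, the last 2 being the highest of all. WT vehicle replicate 1, ranked 2nd by the member mean, had 5490. HT DCS replicate 6, ranked last by the member mean, had a higher microglia sum of 5825. Over groups, the 12 microglia markers summed to 4186 to 6971 in HT DCS, 4228 to 6628 in HT vehicle, 3674 to 7298 in WT DCS and 3895 to 6668 in WT vehicle. The microglia sum had a log2 ratio of 0.13 between the HT vehicle and WT vehicle means, where the interferon genes had a median of -0.15. Of 8 listed markers of T, B and NK cells only Cd4, which is not confined to lymphocytes, was found by symbol. Its level was 137 to 232 in HT DCS, 161 to 190.2 in HT vehicle, 157 to 292 in WT DCS and 188 to 336 in WT vehicle. The oligodendrocyte sum, of 5 markers, ran from 290046 to 453373 in HT DCS and from 350375 to 443630 in HT vehicle. It ran from 397585 to 469296 in WT DCS and from 407074 to 469782 in WT vehicle. Its medians were 369808 in HT DCS, 420814 in HT vehicle, 430697 in WT DCS and 451682 in WT vehicle. The part of cell makeup in the member differences was not tested.

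Within groups, many members deviated together from library to library. Over the 23 libraries, deviations from the group means had a median Pearson r of 0.25 for the 528 pairs of members, 440 of them positive, against -0.002 for members paired with other genes. The libraries share tissue and scaling, so this is a description. The 28 pairs of antiviral effectors were all positive with a median of 0.39, and the 21 pairs of antigen presentation genes had a median of 0.17. The closest pairs were Parp9 with Parp14 at 0.83, Rtp4 with Ifit3 at 0.83, Rtp4 with Ifit1 at 0.78 and Irf7 with Rtp4 at 0.74. Parp14 and Ifit1 had the highest median r with the other members, each 0.46, and Tapbp and H2-D1 the lowest, at -0.02 and -0.05. Among members with a promoter window, the 55 pairs with the ISRE core in both had a median r of 0.35, and the 120 pairs with the core in neither had 0.17. The same 11 members had a median difference between HT DCS and WT vehicle of -0.29, against -0.10 for the 16 without the core, and between WT DCS and WT vehicle the 2 medians were both -0.12. Of the antiviral effectors, Rsad2, Ifit1, Ifit3, Bst2, Ifitm3 and Eif2ak2 held the core, and of the antigen presentation genes only B2m. Motif and role therefore cannot be told apart here, and the differences between members with and without the core were not tested.

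Other genes of the pathway, from a list of 95, were read in the same fit. Of these 75 were tested, and 0 were called by limma in any contrast, where the percentage called over all genes was 0. At an unadjusted p under 0.05 there were 3 between HT vehicle and WT vehicle (all genes 4.22%), 6 between HT DCS and WT DCS (7.55%), 4 between WT DCS and WT vehicle (2.88%), 5 between HT DCS and HT vehicle (4.8%) and 7 between HT DCS and WT vehicle (7.18%). None of the 11 interferon ligand genes listed was found by symbol among the 18848 genes, so they could not be analysed. Among 25 further induced genes, 20 had a lower mean in HT vehicle than under vehicle in WT, 19 in WT DCS than in WT vehicle and 18 in HT DCS than in WT vehicle, while 12 were lower in HT DCS than in WT DCS and 10 in HT DCS than in HT vehicle. Between HT vehicle and WT vehicle, 42 of the 75 genes had a negative difference. These were 8 of 9 receptor and kinase genes (median -0.03), 2 of 7 transcription factors (0.07), 3 of 12 sensors and adaptors (0.06), 3 of 6 inhibitors and 6 of 16 antigen presentation genes (0.02), beside the 20 further induced genes. Of those 9 receptor and kinase genes, 0 had one between HT DCS and HT vehicle.

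Mx1, a dynamin-like antiviral GTPase, was the further induced gene with the smallest p. It averaged 13.3 ± 4.48 in HT DCS, 6.03 ± 3.29 in HT vehicle, 15.3 ± 7.54 in WT DCS and 11.4 ± 2.57 in WT vehicle (SD). The log2 difference was -0.99 ± 0.35 between HT vehicle and WT vehicle and 1.16 ± 0.35 between HT DCS and HT vehicle (limma, adjusted p = 0.999 and 0.893). The lowest mean of Mx1 was that of HT vehicle and not of HT DCS. These means lie near the minimum of 10 set for testing, and that of HT vehicle lies below it. Counting error therefore limits both differences.

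Of the remaining named genes, Irf3, the factor that starts interferon transcription, averaged 564 in HT DCS and 646 in WT DCS, with a log2 difference of -0.20 ± 0.08 (limma, adjusted p = 0.634), and 634 in HT vehicle, which HT DCS was below by -0.17 ± 0.07 (limma, adjusted p = 0.973). Socs1, an inhibitor of the receptor kinases, averaged 37.6 in HT DCS and 25.97 in WT DCS (0.52 ± 0.17, limma, adjusted p = 0.596). H2-Q4, a nonclassical class I gene, averaged 45.9 in WT DCS and 62.4 in WT vehicle (-0.43 ± 0.14, limma, adjusted p = 0.999999). The interaction was -0.27 for Irf3 and 0.49 for H2-Q4. Tbk1, the kinase that activates Irf3, averaged 1346 in WT DCS and 1224 in WT vehicle, Calr, a chaperone of class I loading, 10891 in HT vehicle against 10099 in WT vehicle, and Tmem173, the adaptor STING, 67.2 in HT DCS and 42.6 in WT vehicle. None of these passed adjustment.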

How the data were processed

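The 23 brain libraries were made with a TruSeq Stranded mRNA kit, per the labels. The authors deposited 1 table of 18848 genes with values that are read counts scaled between libraries, a signal with decimals and never negative. The submitters' processing notes name the build GRCm38, R 3.6.2, Salmon 1.1.0 and DESeq2 1.26.0 without saying what each did, and settings and filters are likewise not given there. The depth before scaling was not recovered here, so counting error is approximate. Scaling hides differences in total RNA.

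Groups came from genotype and treatment in the labels. The 17256 genes averaging at least 10 were fitted with limma 3.58.1 in R 4.3.3 on log2(value + 1), with 1 coefficient for each of the 4 groups over all 23 libraries, empirical Bayes moderation with trend and robust settings, two-sided tests and Benjamini-Hochberg adjustment at 0.05. The pseudocount understates changes of low genes. The fit was tested on simulated data. A count test was to be used only for raw counts. Every column had a sample (0 without one), and no 2 libraries were identical.

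The members and lists were chosen with earlier results of these data known. All members were named with group means, and values by library and tests were given for the 3 smallest p-values in each of the 6 contrasts and the highest member of each role, which got no test for that reason alone. Other pathway genes were named if called or, in each contrast, if they had the smallest p in either direction. A result that this rule names is not reported here. Symbols were looked up by Ensembl identifier, coordinates came from GENCODE M21, and promoters from RefSeq.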

Additional observations from a re-analysis of the deposited data

Results flagged for a closer look

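In 11 of 136 sets of values from 1 group (8.09%), 1 library lay far from the others of its group by Dixon's criterion. Chance alone gives about 1 in 20. Values are normalised read counts unless stated. WT vehicle replicate 3 was far above its group for Ifitm3 (204.9), Psmb8 (85.9) and Tap1 (141.6), and it is also the library with the highest member mean. HT DCS replicate 5 was far above its group for Ddx58 (228) and Parp14 (104.1). HT vehicle replicate 2 was far above its group for the mean of the 33 members (7.27 on the log2 scale), with 31 of 33 members above their own mean. WT DCS replicate 5 was far above its group for Ddx58 (164.4). WT DCS replicate 4 was far below its group for Rtp4 (17.6) and Ifit3 (119.4), WT vehicle replicate 4 for Rtp4 (17.4) and HT vehicle replicate 6 for Adar (5461).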

How the results depend on the processing

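The median member difference, the count of members with a lower mean and the calls were recomputed under other pseudocounts, filters, moderation, quantile normalisation, smaller sets of libraries and each library left out. No member was called by limma under any of them. With replicates 4 to 6 only, 18 members were lower between HT vehicle and WT vehicle and 13 between HT DCS and WT DCS. In that set 1 gene was called in each of HT DCS against WT DCS, WT DCS against WT vehicle and the interaction. These 3 contrasts had only 2 WT DCS libraries there. Leaving out 1 library gave 0 to 1 called genes in HT DCS against WT DCS (1 without HT vehicle replicate 6), in HT DCS against HT vehicle (1 without HT DCS replicate 4 or HT vehicle replicate 1) and in HT DCS against WT vehicle (1 without HT vehicle replicate 6), none of them a member. It gave 7 to 17 members lower in the interaction, 7 without HT vehicle replicate 2 or WT vehicle replicate 4. In HT DCS against HT vehicle, Isg15 turned to 0.063 on the log2 scale in replicates 4 to 6 and Nlrc5 to -0.022 in replicates 1 to 3; the cause was not tested. The replicate block called 11 genes with the numbers of the titles and 2 with those of the descriptions between HT DCS and WT vehicle, 0 of them members, and changed no other call. The numbers differ for 1 WT DCS library. With the numbers of the titles, same-numbered libraries had deviations with r from -0.07 to 0.30, and 5 of 33 pairs were over 0.1. The median r was 0.01 for same-numbered and -0.003 for other-numbered libraries. Whether the numbers pair the samples was not tested. The interaction uses all groups, so the fit on only the groups compared was not run there. A mean of at least 50 left 24 members, with a median of -0.07 between HT vehicle and WT vehicle. Among the members, low levels limit Psmb9 (counting error 25.6%), Usp18 (20.6%), Isg15 (19.6%) and Nlrc5 (19.5%) most.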
